A study of Mus musculus with 10 samples.

Results

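The genes described here encode adipokines, the hormones and carrier proteins that fat secretes, and their receptors. They are leptin (Lep) and its receptor Lepr, resistin (Retn), chemerin (Rarres2) and its receptor Cmklr1, retinol binding protein (Rbp4) and the RBP4 receptor Stra6, nicotinamide phosphoribosyltransferase or visfatin (Nampt), and apelin (Apln) and its receptor Aplnr. They were taken by symbol, and all 10 were found among the 40503 genes of the gene table, with 36 of the 84046 transcripts of the transcript table. The libraries came from the gonadal white adipose tissue (the fat beside the ovaries and uterus) of female C57BL/6 mice aged 12 weeks. The 5 KO-labelled mice had the genotype Med19 KO, an adipose-specific deletion inducible with tamoxifen (Med19-iAKO) of a gene for a subunit of Mediator, which relays signals from transcription factors to RNA polymerase II. They received tamoxifen at 100 mg/kg on 5 days, and tissue was taken 14 days later. The 5 WT mice were controls of genotype WT. The sources used here do not say whether these controls carried a floxed allele or a Cre or received tamoxifen, and they name no promoter for the Cre of the KO-labelled mice. Each library is named by its group and animal number.

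Leptin is secreted by fat cells in proportion to their fat and acts on the brain through JAK-STAT signalling to restrain appetite. Resistin in mice comes from fat cells and opposes insulin, and RBP4 carries retinol in the blood and has been tied to insulin resistance in mice. Chemerin is secreted as an inactive precursor that proteases trim, and it then attracts immune cells and acts on fat cells through CMKLR1. Apelin acts on blood vessels through a G protein-coupled receptor, and NAMPT makes a precursor of NAD inside cells and also circulates.

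Reads assigned to genes, recovered from the RPKM values (reads per kilobase of gene, scaled to library size), numbered 14440547 to 20178082 per library. Med19 RNA did not separate the groups and so gives no check of the labels. It was 6.79 ± 0.85 RPKM in KO-labelled fat (range 5.58 to 7.99) and 6.70 ± 0.89 RPKM in WT (5.62 to 7.64; mean ± SD, n = 5 each; 2-sided exact permutation test, p = 0.881). Every direction below rests on the labels. The tissue label fitted the adipocyte markers, whose summed level over 17 genes other than the 10 described was 4146 to 5077 RPKM in KO-labelled fat and 7333 to 10370 RPKM in WT. The separate animals of a group are the replicates, and no batch is labelled.

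Retn and Rbp4 fell, Rarres2 rose, and the other 7 genes did not pass the test. Calls are from limma on log2(RPKM + 0.5) over 17038 genes, at a Benjamini-Hochberg adjusted p under 0.05, and a fold change on that scale understates the change of low genes. All 10 genes passed the filter on low values. Of them 2 were called lower, where 1.95% of all tested genes were, and 1 was called higher, where 4.00% were. In 3 genes (Retn, Rbp4 and Cmklr1) every KO-labelled library lay below every WT library, as in 2.15% of tested genes, and in 1 (Rarres2) above, as in 6.96%. Median-ratio scaling between libraries changed the split of calls over all genes from 332 lower and 681 higher to 414 lower (2.43%) and 102 higher (0.599%). The median log2 change was 0.005 over the 10 genes and 0.089 over all tested genes. Since the tissue was sequenced in bulk, fewer cells of a type and less RNA per cell cannot be told apart.

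**Figure D1:**
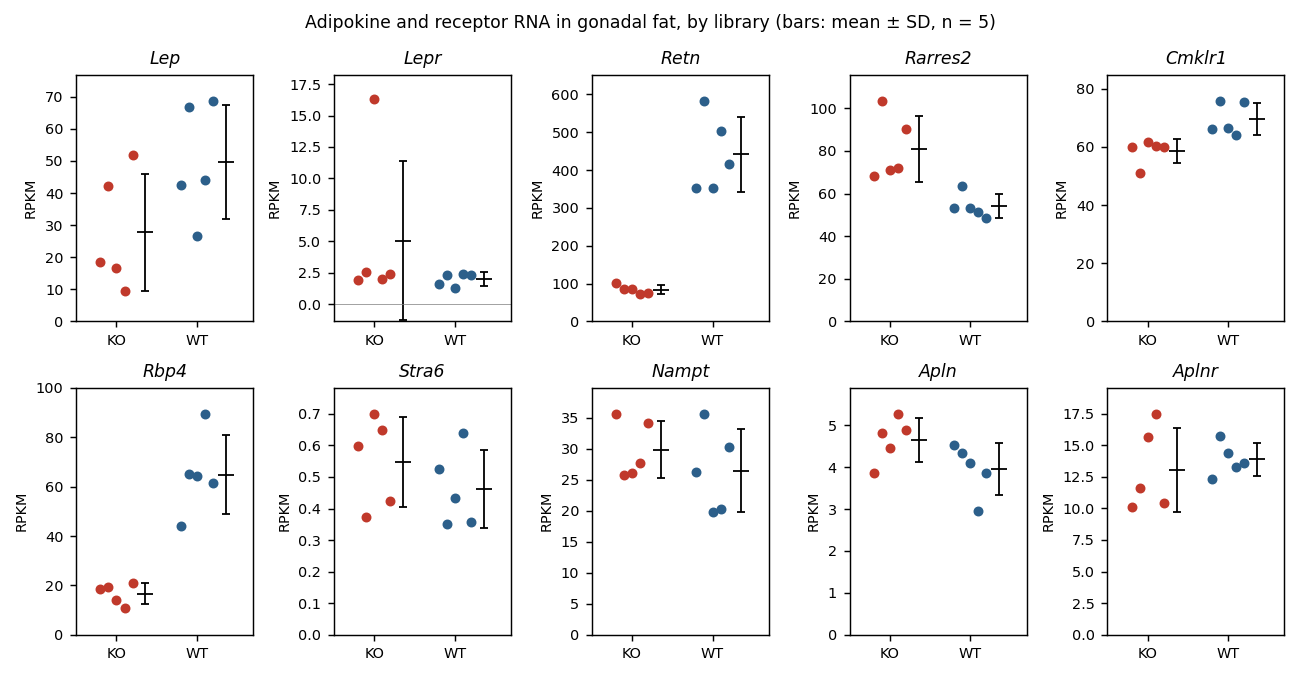
RPKM of each gene (vertical axis) in each library, with KO-labelled libraries in red on the left and WT libraries in blue on the right of each panel, and mean ± SD (n = 5) beside them. Retn, Rbp4 and Cmklr1 (the last not called) lie lower in every KO-labelled library than in any WT library, and Rarres2 lies higher. The Lepr panel has 1 KO-labelled library at 16.3 RPKM.

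Resistin RNA showed the largest change of the 10 genes. Retn (ENSMUSG00000012705) had 102 RPKM (KO 1), 85.3 (KO 4), 85.5 (KO 7), 72.1 (KO 8) and 76.0 (KO 17). In WT it had 353 RPKM (WT 2), 583 (WT 9), 354 (WT 19), 503 (WT 86) and 416 (WT 89). The groups lay far apart, and the KO-labelled libraries spread over 1.42-fold from lowest to highest. The means were 84.3 ± 11.7 RPKM in KO-labelled fat and 442 ± 99.9 RPKM in WT (SD, n = 5 each), so the mean was 80.9% lower in KO-labelled fat. The log2 change was -2.37 (SE 0.15, adjusted p = 1.89e-05), and 7 of the genes called lower had a more negative one. Both Retn transcripts of the table fell. ENSMUST00000012849, which held 98.1% ± 0.27 of the summed transcript RPKM of the gene in KO-labelled fat and 98.3% ± 0.30 in WT, averaged 158 ± 22.5 RPKM in KO-labelled fat and 798 ± 181 RPKM in WT (log2 change -2.32, adjusted p = 2.80e-04). ENSMUST00000169234 averaged 3.05 ± 0.43 RPKM in KO-labelled fat and 13.3 ± 2.45 RPKM in WT (log2 change -1.95, adjusted p = 3.25e-04). The share of each transcript differed between the group means by less than 1 percentage point.

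The gene lies on chromosome 8 at 3655770 to 3660110 on the plus strand (GRCm38, GENCODE M21), and both transcripts start at its first base. All coordinates are those of this reference, because no build is named for the deposited values. The 250 bases before the RefSeq start site (GRCm38.p6, chr8:3655520-3655769, plus strand) are shown because both transcripts begin there.
Retn: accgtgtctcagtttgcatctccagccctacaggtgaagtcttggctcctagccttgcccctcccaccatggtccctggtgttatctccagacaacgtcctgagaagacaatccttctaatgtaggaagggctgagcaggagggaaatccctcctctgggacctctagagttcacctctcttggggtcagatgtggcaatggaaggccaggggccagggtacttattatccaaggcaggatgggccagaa
None of the motifs searched occurs in this window. They were the TATA box TATAAA, the CCAAT box CCAAT, the C/EBP consensus TTGCNNAA, the nuclear receptor site AGGTCA, its PPAR-RXR repeat with 1 base between both copies, and the E-box CACGTG, each on both strands. In all 32851 RefSeq promoter windows of this length they occur in 12.4%, 33.8%, 9.56%, 14.0%, 0.0335% and 6.02%, in the order named. The absence of these letters from 1 window says nothing about the factors.

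RNA of RBP4 fell in the same direction, and no protein was measured. Rbp4 (ENSMUSG00000024990, chromosome 19, 38116629 to 38125281, minus strand) had 18.4 RPKM (KO 1), 19.3 (KO 4), 13.9 (KO 7), 10.9 (KO 8) and 20.8 (KO 17). It had 44.2 RPKM (WT 2), 65.3 (WT 9), 64.1 (WT 19), 89.3 (WT 86) and 61.5 (WT 89). The highest KO-labelled library had less than the lowest WT library. The means were 16.7 ± 4.1 RPKM in KO-labelled fat and 64.9 ± 16.1 RPKM in WT (SD, n = 5 each), so the mean was 74.3% lower in KO-labelled fat. The log2 change was -1.93 (SE 0.21, adjusted p = 6.55e-04), with 21 of the genes called lower showing a more negative one.

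Of the Rbp4 transcripts, the one that begins at the downstream start site was called lower. Transcripts of a gene share exons, and how reads were divided among them is not stated. ENSMUST00000112335, which starts at 38124828, averaged 19.96 ± 5.06 RPKM in KO-labelled fat and 84.7 ± 22.3 RPKM in WT (log2 change -2.05, SE 0.23, adjusted p = 0.00356). ENSMUST00000025951, which starts upstream at 38125248, averaged 1.62 ± 1.00 RPKM in KO-labelled fat and 2.61 ± 0.64 RPKM in WT and was not called (log2 change -0.69, SE 0.37, adjusted p = 0.608). The upstream form held 7.62% ± 4.66 of the summed transcript RPKM in KO-labelled fat and 3.16% ± 1.15 in WT, with no test made of this share or of the difference between the changes. Windows of 250 bases before the RefSeq start sites nearest to these transcripts are shown to set the start of the transcript that was called lower beside that of the one that was not called. RefSeq places them 17 bases downstream of the GENCODE start of ENSMUST00000112335 and 73 bases upstream of that of ENSMUST00000025951. Capitals mark motif matches.
Rbp4 downstream start, chr19:38124812-38125061, minus strand: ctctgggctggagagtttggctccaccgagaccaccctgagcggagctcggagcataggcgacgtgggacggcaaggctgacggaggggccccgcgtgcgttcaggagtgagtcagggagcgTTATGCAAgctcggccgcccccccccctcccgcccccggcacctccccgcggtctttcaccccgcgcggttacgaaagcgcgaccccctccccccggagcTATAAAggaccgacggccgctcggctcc
Rbp4 upstream start, chr19:38125322-38125571, minus strand: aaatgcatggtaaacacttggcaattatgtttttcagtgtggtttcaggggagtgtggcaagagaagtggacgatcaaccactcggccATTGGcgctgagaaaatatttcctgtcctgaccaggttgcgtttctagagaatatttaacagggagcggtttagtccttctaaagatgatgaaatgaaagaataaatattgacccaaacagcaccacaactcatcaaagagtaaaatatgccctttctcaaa
The downstream window holds TATAAA from 28 to 23 bases before the start and TTATGCAA, a match to TTGCNNAA on the other strand, from 128 to 121 bases before it. The upstream window holds neither, and 1 CCAAT box on the other strand. These matches describe letters and not bound sites.

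The mean of leptin RNA was lower in KO-labelled fat, and the difference did not pass the test. Lep (ENSMUSG00000059201, chromosome 6, 29060220 to 29073877, plus strand) had 18.4 RPKM (KO 1), 42.2 (KO 4), 16.6 (KO 7), 9.49 (KO 8) and 51.9 (KO 17). It had 42.4 RPKM (WT 2), 66.7 (WT 9), 26.7 (WT 19), 44.1 (WT 86) and 68.7 (WT 89). KO 1, KO 7 and KO 8 lay below all WT libraries, while KO 4 and KO 17 lay within the WT range. The highest KO-labelled library had 5.47 times the lowest, and the highest WT library had 2.57 times the lowest. The means were 27.7 ± 18.3 RPKM in KO-labelled fat and 49.7 ± 17.7 RPKM in WT (SD, n = 5 each), with a log2 change of -1.01 (SE 0.45, 95% interval -2.01 to -0.02, adjusted p = 0.196). Its main transcript ENSMUST00000069789 was at 22.3 ± 14.6 RPKM in KO-labelled fat and 41.3 ± 14.4 RPKM in WT, and ENSMUST00000169505 was at 6.08 ± 6.36 RPKM in KO-labelled fat and 13.7 ± 8.98 RPKM in WT. Neither was called (adjusted p = 0.504 and 0.550). The Lep promoter window is shown, chosen after the values were seen, because it holds the C/EBP motif for which this promoter is known.
Lep, chr6:29059971-29060220, plus strand: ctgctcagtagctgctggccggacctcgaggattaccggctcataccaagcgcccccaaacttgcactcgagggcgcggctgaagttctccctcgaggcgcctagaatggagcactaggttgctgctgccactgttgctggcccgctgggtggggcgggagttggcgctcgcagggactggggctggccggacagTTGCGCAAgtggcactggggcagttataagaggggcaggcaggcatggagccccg
The capitals TTGCGCAA, 55 to 48 bases before the start, match TTGCNNAA on both strands.

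Leptin receptor RNA was low, and 1 library stood apart in 1 of the tables. Lepr (ENSMUSG00000057722, chromosome 4, 101717404 to 101815352, plus strand) had 1.92 RPKM (KO 1), 2.58 (KO 4), 16.3 (KO 7), 2.00 (KO 8) and 2.44 (KO 17). WT libraries held 1.60 RPKM (WT 2), 2.36 (WT 9), 1.26 (WT 19), 2.43 (WT 86) and 2.33 (WT 89). KO 7, with 2060 recovered reads, had 6.31 times the highest of the other 9 libraries, where 144 to 368 reads were recovered. The log2 change was 0.68 (SE 0.49, adjusted p = 0.429), and 0.15 without KO 7 (adjusted p = 0.627), when the 4 remaining KO-labelled libraries averaged 2.24 ± 0.33 RPKM.

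In the transcript table KO 7 did not stand apart. The 7 Lepr transcripts summed to 8.14 RPKM in KO 7 and to 7.29 to 13.2 RPKM in the other libraries. The gene value was 2.00 times that sum in KO 7 and 0.144 to 0.340 times in the other 9. The neighbouring gene Leprot, which encodes a regulator of leptin receptor trafficking, was at 46.9 RPKM in KO 7 and 42.4 to 64.7 RPKM elsewhere. What the additional reads of the gene value in KO 7 are was not tested. The transcript with the highest value, the short processed transcript ENSMUST00000151733, averaged 5.42 ± 1.09 RPKM in KO-labelled fat and 6.38 ± 1.08 RPKM in WT. ENSMUST00000106921, the most abundant protein-coding form, was at 1.42 ± 0.30 RPKM in KO-labelled fat and 1.30 ± 0.33 RPKM in WT. ENSMUST00000037552, which extends to the gene's last base, was at 0.196 ± 0.161 RPKM in KO-labelled fat and 0.142 ± 0.057 RPKM in WT and was under the filter. The processed transcript ENSMUST00000156402 was at 0.740 ± 0.767 RPKM in KO-labelled fat and 1.76 ± 0.54 RPKM in WT, and ENSMUST00000128948 at 0.600 ± 0.368 RPKM in KO-labelled fat and 0.490 ± 0.647 RPKM in WT. No Lepr transcript was called, with adjusted p from 0.431 to 0.913 in the 4 tested.

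**Figure D2:**
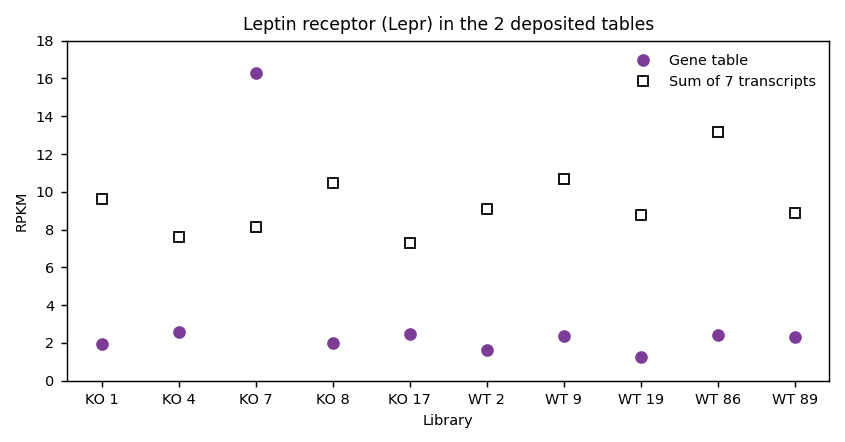
Lepr RPKM (vertical axis) in each library (horizontal axis, KO-labelled on the left), from the gene table (filled circles) and as the sum of 7 transcripts (open squares). KO 7 is at 16.3 RPKM in the gene table and at 8.14 RPKM in the transcript sum, inside the range of the other libraries.

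Chemerin RNA rose, and that of its receptor CMKLR1 did not pass the test. Rarres2 (ENSMUSG00000009281, chromosome 6, 48569696 to 48572789, minus strand) had 68.2 RPKM (KO 1), 103 (KO 4), 70.8 (KO 7), 71.8 (KO 8) and 90.2 (KO 17). It had 53.1 RPKM (WT 2), 63.5 (WT 9), 53.3 (WT 19), 51.5 (WT 86) and 48.8 (WT 89). The lowest KO-labelled library lay above the highest WT library. Means were 80.9 ± 15.3 RPKM in KO-labelled fat and 54.0 ± 5.61 RPKM in WT (SD, n = 5 each), a ratio of 1.50, and the log2 change was 0.56 (SE 0.12, adjusted p = 0.0298). The call ended without KO 17 (log2 change 0.52), WT 2 (0.56), WT 19 (0.56), WT 86 (0.55) or WT 89 (0.53), in the animals numbered under 20 (0.50), with no filter on low values (0.56, adjusted p = 0.0529) and with median-ratio scaling between libraries (0.47, adjusted p = 0.0541). The 1 transcript in the table, ENSMUST00000009425, was at 100.3 ± 17.7 RPKM in KO-labelled fat and 66.7 ± 6.4 RPKM in WT, and was not called among transcripts (log2 change 0.57, adjusted p = 0.09999).

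Exons of Rarres2 share bases with Lrrc61 on the opposite strand, and whether reads were counted by strand is not stated. Lrrc61 was at 4.29 ± 0.18 RPKM in KO-labelled fat and 4.74 ± 0.54 RPKM in WT, a log2 change of -0.12 (adjusted p = 0.348). Markers of mesothelium, which lines this fat depot and is known to make chemerin, summed to 326 to 390 RPKM in KO-labelled fat and 285 to 342 RPKM in WT. Their part in the rise of Rarres2 was not tested.

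Cmklr1 (ENSMUSG00000042190, chromosome 5, 113612354 to 113650426, minus strand), expressed on macrophages and adipocytes, had 60.1 RPKM (KO 1), 51.2 (KO 4), 61.6 (KO 7), 60.3 (KO 8) and 59.8 (KO 17). WT 2 had 66.3, WT 9 had 75.8, WT 19 had 66.4, WT 86 had 64.0 and WT 89 had 75.3 RPKM. The groups did not overlap, but the gap was small, and the gene was not called (58.6 ± 4.20 RPKM in KO-labelled fat, 69.6 ± 5.54 RPKM in WT, log2 change -0.25, SE 0.075, 95% interval -0.41 to -0.08, adjusted p = 0.0778). All 4 Cmklr1 transcripts were tested and none was called. The main one, ENSMUST00000047936, was at 46.6 ± 4.2 RPKM in KO-labelled fat and 56.7 ± 6.0 RPKM in WT (adjusted p = 0.384), and ENSMUST00000132065 was at 21.9 ± 4.83 RPKM in KO-labelled fat and 20.8 ± 5.26 RPKM in WT (adjusted p = 0.937). ENSMUST00000142854 was at 6.80 ± 2.15 RPKM in KO-labelled fat and 10.3 ± 2.71 RPKM in WT (adjusted p = 0.482), and ENSMUST00000151460 at 5.30 ± 1.75 RPKM in KO-labelled fat and 6.41 ± 1.76 RPKM in WT (adjusted p = 0.800).

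No difference was detected for the remaining genes. Nampt (ENSMUSG00000020572, chromosome 12, 32819545 to 32853349, plus strand) ranged from 25.8 to 35.5 RPKM in KO-labelled fat, with a median of 27.6, and from 19.8 to 35.5 RPKM in WT, with a median of 26.2. The ratio from limma was 1.14 (95% interval 0.885 to 1.48, adjusted p = 0.519). Its transcript ENSMUST00000020886 was at 21.0 ± 3.30 RPKM in KO-labelled fat and 20.4 ± 4.41 RPKM in WT (adjusted p = 0.952). Stra6 (ENSMUSG00000032327, chromosome 9, 58063788 to 58153996, plus strand), a membrane receptor that takes retinol from RBP4, was near the filter, at 0.374 to 0.699 RPKM in KO-labelled fat and 0.351 to 0.641 RPKM in WT. Its 30 to 73 recovered reads per library limit what could be seen (log2 change 0.12, SE 0.14, adjusted p = 0.642). Of its 14 transcripts 7 were listed at 0 in every library, and ENSMUST00000085677 was the 1 transcript with a group mean of at least 0.5 RPKM (0.836 ± 0.298 RPKM in KO-labelled fat, 0.467 ± 0.200 RPKM in WT, adjusted p = 0.571).

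Apelin RNA and that of its receptor did not pass either. Apln (ENSMUSG00000037010, chromosome X, 48025146 to 48034853, minus strand) had 3.87 RPKM (KO 1), 4.82 (KO 4), 4.45 (KO 7), 5.26 (KO 8) and 4.88 (KO 17), against 4.54 (WT 2), 4.33 (WT 9), 4.10 (WT 19), 2.94 (WT 86) and 3.87 (WT 89). The groups overlapped, and the ratio was 1.16 (95% interval 0.977 to 1.38, adjusted p = 0.265). Its transcript ENSMUST00000039026 was at 3.69 ± 0.413 RPKM in KO-labelled fat and 3.13 ± 0.495 RPKM in WT (adjusted p = 0.679). Aplnr (ENSMUSG00000044338, chromosome 2, 85136225 to 85139923, plus strand), found on blood vessels among other cells, ranged from 10.1 to 17.4 RPKM in KO-labelled fat and from 12.3 to 15.7 RPKM in WT, with KO-labelled libraries at both ends. It did not pass (ratio 0.924, 95% interval 0.737 to 1.16, adjusted p = 0.685). Its transcripts ENSMUST00000057019 (9.64 ± 2.51 RPKM in KO-labelled fat, 10.45 ± 0.857 RPKM in WT) and ENSMUST00000184728 (7.09 ± 2.38 RPKM in KO-labelled fat, 6.09 ± 2.81 RPKM in WT) were not called either. The endothelial marker list beside it summed to 142 to 207 RPKM in KO-labelled fat and 171 to 212 RPKM in WT, with 1 of 12 genes, Kdr (log2 change -0.55), called lower.

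**Figure D3:**
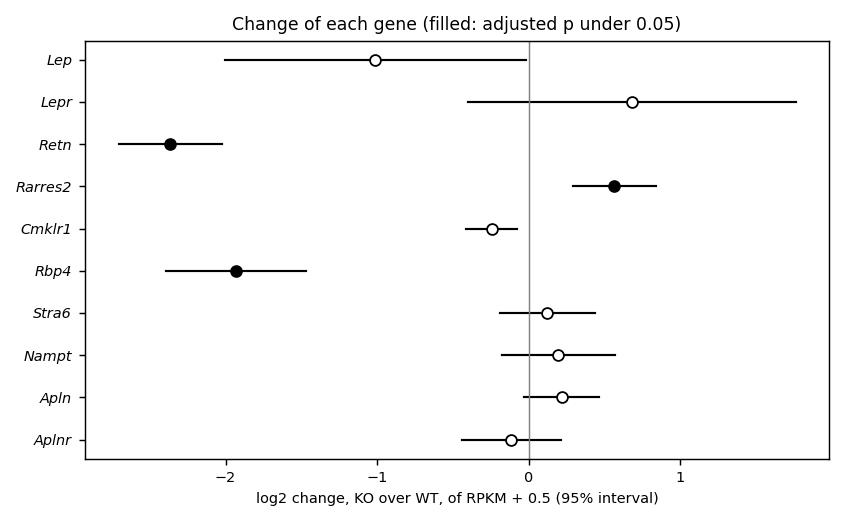
Log2 change of RPKM + 0.5, KO-labelled over WT, for each gene with its 95% interval from limma (horizontal axis). Filled circles passed the test: Retn at -2.37, Rbp4 at -1.93 and Rarres2 at 0.56, while the widest intervals are those of Lepr and Lep.

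On the transcript scale, 20 of the 36 transcripts of these genes passed the filter. By limma 3 were called lower, where 0.452% of 44475 transcripts were, and 0 higher, where 0.0922% were. At an unadjusted p under 0.05, 7 were lower and 1 higher, and no share over all transcripts was computed at that threshold. Several of these transcripts belong to the same gene and share exons, so the counts are not of separate signals.

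Retn headed the order of levels per length (gene RPKM) in both groups. Rarres2 stood further up and Rbp4 further down the order in KO-labelled fat than in WT. In the KO-labelled libraries the means ran from Retn (84.3 RPKM) through Rarres2 (80.9), Cmklr1 (58.6), Nampt (29.8), Lep (27.7), Rbp4 (16.7), Aplnr (13.0), Lepr (5.05) and Apln (4.66) to Stra6 (0.549). In WT they ran from Retn (442 RPKM) through Cmklr1 (69.6), Rbp4 (64.9), Rarres2 (54.0), Lep (49.7), Nampt (26.4), Aplnr (13.9), Apln (3.95) and Lepr (2.00) to Stra6 (0.462). Retn stood apart from all others in WT, and in the KO-labelled libraries its range overlapped that of Rarres2. By summed transcript RPKM these KO-labelled ranges did not overlap (Retn 139 to 197 RPKM, Rarres2 85.6 to 125 RPKM). In WT the gene ranges of Rbp4, Rarres2 and Lep overlapped each other. So did those of Cmklr1 with Rbp4 and with Lep, and of Lep with Nampt. In KO-labelled fat the range of Lep covered the values of Nampt and reached those of Rbp4, Cmklr1 and Aplnr. Without KO 7 the mean of Lepr there was 2.24 RPKM, below that of Apln.

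Levels were also set against adiponectin (Adipoq), the insulin-sensitizing adipokine made by fat cells. Adipoq itself fell to 307 ± 42 RPKM in KO-labelled fat, against 713 ± 99 RPKM in WT (log2 change -1.21, adjusted p = 5.20e-04). Retn RPKM was 23.6% to 32.0% of Adipoq RPKM in KO-labelled fat and 55.4% to 71.5% in WT. Rbp4 was at 4.41% to 6.54% of Adipoq in KO-labelled fat and at 7.60% to 11.4% in WT. Lep was at 3.84% to 16.3% in KO-labelled fat and at 4.19% to 9.21% in WT, and Rarres2 at 21.3% to 29.0% in KO-labelled fat and at 6.54% to 9.12% in WT. The ranges of Retn, Rbp4 and Rarres2 per Adipoq did not overlap between the groups, and those of Lep did. Because Adipoq itself fell, the ratio of a gene of unchanged level would rise in KO-labelled fat, and the rise of Rarres2 per Adipoq includes that fall. How many of all genes separate on this ratio was not computed. These ratios describe the libraries and were not tested.

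Genes listed as other adipokines divided into both directions. Of 27 tested, 7 fell and 3 rose, with a median log2 change of 0.17 beside 0.089 over all genes. The largest changes were those of Nnat, the imprinted neuronatin gene, whose product is a membrane protein (log2 change -3.13, 31.6 ± 1.72 RPKM in KO-labelled fat and 290.9 ± 85.6 RPKM in WT), Cfd or adipsin (-2.15) and Nrg4 or neuregulin 4 (-1.71), followed by Adipoq. By the definition used here, of a secreted protein, neither Nnat nor Pnpla2, a triglyceride lipase gene on the list, encodes an adipokine. Pnpla2 was also among the 7. Agt, the angiotensinogen gene (-0.65), and Vegfa, a growth factor gene for vessels (-0.64), made up the rest. Those that rose were Lcn2 or lipocalin 2 (log2 change 1.03), Angptl4, whose product inhibits lipoprotein lipase (0.56), and Fndc5, which encodes the irisin precursor (0.50, adjusted p = 0.0612 with median-ratio scaling). Agt was uncalled in the runs that lacked KO 1, 7 or 8 or WT 2, 9 or 89. The call of Vegfa ended without KO 1, KO 4, KO 17, WT 2, WT 9, WT 19 or WT 86 and that of Lcn2 without KO 1. The other 7 calls each held whichever library was left out.

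The adipocyte markers, beside which Retn, Rbp4 and Lep were measured, had 13 of 17 genes lower and 0 higher (median log2 change -1.11). At an unadjusted p under 0.05 there were 14 lower and 0 higher, and limma-voom on recovered reads called 14 lower and 0 higher. Adipoq is on this list as well. Pck1, the cytosolic enzyme of glyceroneogenesis, was at -3.12 on the log2 scale, the lipid droplet protein gene Cidec at -2.08 and Plin4 at -1.52. The part of this shift in the falls of Retn and Rbp4 was not tested.

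Of 13 tested signalling genes downstream of or beside the leptin receptor, 1 fell and 2 rose (median log2 change 0.18). Irs1, an adaptor shared with the insulin receptor, was at 9.17 ± 0.95 RPKM in KO-labelled fat and 14.6 ± 2.6 RPKM in WT (log2 change -0.63, adjusted p = 0.0164). Ptpn2, a phosphatase of JAK and STAT proteins, rose by 0.40 on the log2 scale and Stat5a by 0.34. With median-ratio scaling both were uncalled (adjusted p = 0.193 and 0.151). The call of Ptpn2 also ended in every run that left out 1 library other than KO 4 and WT 2, and that of Stat5a without KO 1, KO 7, KO 8, WT 2, WT 9, WT 19 or WT 89. Stat3 and Socs3 did not pass.

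Among relatives of resistin none of those tested fell. Of the 6 tested genes of the family and its proposed receptors, 3 rose and 0 fell (median log2 change 0.37; 0 fell at an unadjusted p under 0.05 and by voom). Retnlg, a resistin-like gene of neutrophils and bone marrow, was at 13.0 ± 4.85 RPKM in KO-labelled fat and 4.47 ± 2.72 RPKM in WT (log2 change 1.50, adjusted p = 0.0318). Its call ended without KO 1, KO 8, KO 17, WT 9, WT 19, WT 86 or WT 89 and with median-ratio scaling (adjusted p = 0.0507). Beside it, neutrophil and monocyte markers summed to 473 to 873 RPKM in KO-labelled fat and 209.9 to 413 RPKM in WT, with 4 of 12 called higher (2 with median-ratio scaling), S100a9 (log2 change 1.21), Cxcr2 (0.78) and Mmp8 (0.76) among them. Cxcr2 and Mmp8 were uncalled with that scaling (adjusted p = 0.108 and 0.057). The remaining call was Ccr2 (log2 change 0.54, adjusted p = 0.00426), and S100a8 and Ly6g were among the genes not called. Most of the sum came from S100a8 (323 ± 135 RPKM in KO-labelled fat, 127 ± 39.3 RPKM in WT) and S100a9 (257 ± 63.8 RPKM in KO-labelled fat, 110 ± 26.6 RPKM in WT). The part of neutrophils and monocytes in the rise of Retnlg was not tested. Retnla, a resistin-like gene of macrophages, was at 885 ± 446 RPKM in KO-labelled fat and 550.2 ± 174 RPKM in WT, with a log2 change of 0.62 (adjusted p = 0.232). Tlr4 (0.34) and Cap1 (0.33), proposed from work in human cells as resistin receptors, rose, and median-ratio scaling ended both calls (adjusted p = 0.0574 and 0.211). The call of Cap1 also ended in every run that left out 1 library other than KO 4 and WT 2.

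Of 11 tested genes that carry or convert retinol, 1 fell and 2 rose (median log2 change 0.26). Rbp7, a retinol binding protein gene of fat and its vessels, fell by 0.66 on the log2 scale, and its call ended in each run that left out 1 library other than KO 8. Dhrs3, a retinal reductase gene, rose by 0.29 and Dhrs9 by 0.53, and both calls ended with median-ratio scaling (adjusted p = 0.107 and 0.161). Leaving out KO 8, WT 86 or WT 89 ended that of Dhrs3, and any library but KO 4 and KO 17 that of Dhrs9.

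Among the 16 tested genes of NAD synthesis and use, around Nampt, the median log2 change was 0.0066, 0 were called by limma in either direction, 1 was lower and 3 were higher at an unadjusted p under 0.05, and voom called 0. The most abundant by the mean over all 10 libraries were the NAD kinase gene Nadk (64.6 ± 3.29 RPKM in KO-labelled fat and 69.0 ± 5.33 RPKM in WT) and Nnmt (28.3 ± 6.01 RPKM in KO-labelled fat and 37.6 ± 6.07 RPKM in WT), whose enzyme methylates nicotinamide (log2 change -0.41, adjusted p = 0.138).

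Chemerin's other receptors and the proteases around it had 2 of 10 tested genes higher and 0 lower (median log2 change 0.33; 6 higher and 0 lower at an unadjusted p under 0.05, 4 and 0 by voom). These were the lysosomal cathepsin genes Ctsl (log2 change 0.50, 409 ± 36.2 RPKM in KO-labelled fat and 291 ± 36.4 RPKM in WT) and Ctsk (0.45). With median-ratio scaling adjusted p was 0.0735 and 0.0686, and 0 genes of the list were called. Over all genes voom called 855 of 17037 higher, and no share over all genes was computed for the unadjusted count. The call of Ctsl ended without KO 1, KO 7, KO 8, WT 86 or WT 89, and that of Ctsk without KO 1 or WT 86. The binding receptor gene Ccrl2 was at 14.45 ± 3.15 RPKM in KO-labelled fat and 9.97 ± 1.399 RPKM in WT (log2 change 0.50, adjusted p = 0.0686).

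In the apelin list of 9 tested genes, 1 rose and 1 fell (median log2 change 0.19). Mme, which encodes neprilysin, a protease that degrades apelin, was at 7.90 ± 1.31 RPKM in KO-labelled fat and 4.60 ± 0.68 RPKM in WT (log2 change 0.72, adjusted p = 0.0107). Gnai1, an inhibitory G protein subunit gene, fell by 0.65 (adjusted p = 0.0194), a call that ended without KO 1 or WT 86. Mme stayed called whichever library was left out and with median-ratio scaling (adjusted p = 0.0311).

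**Figure D4:**
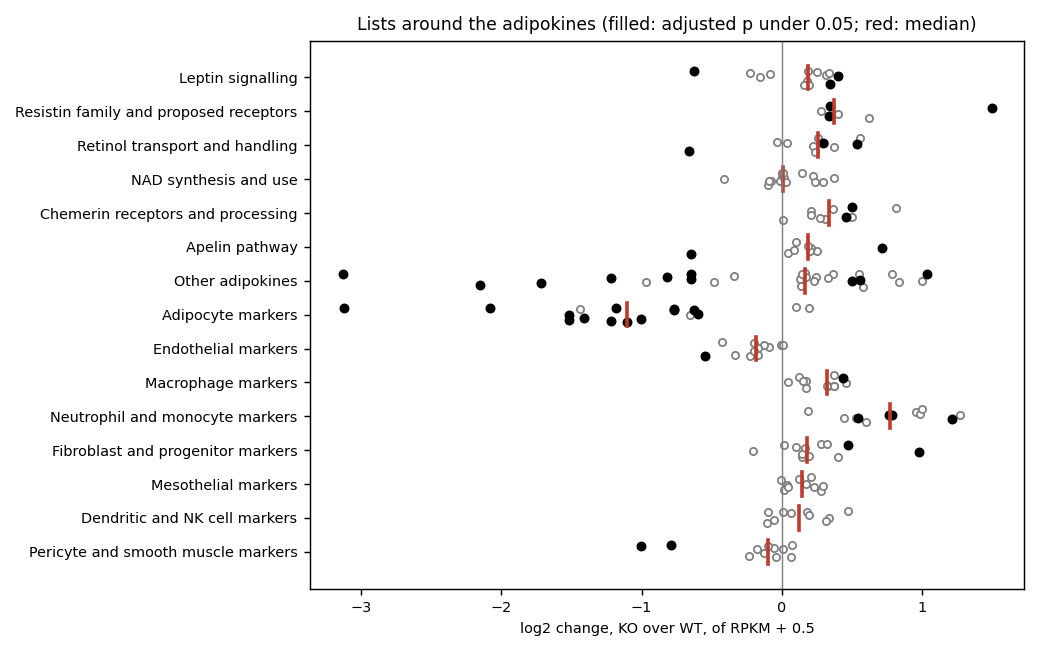
Log2 change, KO-labelled over WT (horizontal axis), of every tested gene in lists of pathway genes and cell type markers (1 point per gene, filled where the adjusted p was under 0.05, red line at the median of the list; the list with 1 tested gene is left out). Adipocyte markers centre on -1.11 and neutrophil and monocyte markers on 0.77, while the pathway lists centre between 0.01 and 0.37.

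Markers of other cells that gonadal fat holds were measured beside these genes. Macrophage markers summed to 4866 to 6104 RPKM in KO-labelled fat and 3927 to 5240 RPKM in WT, with 1 of 12 higher (Itgam, log2 change 0.43; 0 with median-ratio scaling). Fibroblast and progenitor markers summed to 2472 to 2824 RPKM in KO-labelled fat and 1951 to 2678 RPKM in WT, with Dpt (0.98) and Lum (0.47) of 12 higher, and Lum not with median-ratio scaling. Pericyte and smooth muscle markers summed to 254 to 312 RPKM in KO-labelled fat and 278 to 368 RPKM in WT, with Mcam (log2 change -1.01) and Cspg4 (-0.79) of 11 lower. Of 10 mesothelial and 10 dendritic and NK cell markers tested, limma called 0 (at an unadjusted p under 0.05, 3 and 2 were higher and 0 lower, and by voom 1 and 0 were higher). The calls of Kdr (in all runs but that without KO 8), Cxcr2 (all but WT 2) and Lum (all but WT 9 and WT 89) ended when 1 library was left out. Itgam was uncalled in the runs that lacked KO 1, 7 or 8 or WT 9, 86 or 89, and Mmp8 in those that lacked KO 1, 8 or 17 or WT 9, 19, 86 or 89. No marker gene found in the table was at 0 in every library. Of 10 ovary, oviduct and uterus markers 1 passed the filter and was not called by limma or voom, nor at an unadjusted p under 0.05.

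Genes whose values followed these genes most closely within the groups were found among 11238 genes by Pearson correlation over the 10 libraries, after the group means were taken off. The highest was 0.987, between Lep and Lgr4, followed for Lep by Grsf1 (0.965) and Atg10 (0.958). For Retn they were Entpd6 (0.892), Wbp1 (0.882) and Uqcrc2 (0.880), and for Rbp4 Matn2 (0.921), Tulp3 (0.915) and Vtn (0.913). For Rarres2 they were Pank2 (0.975), Mrps26 (0.969) and Tmem110 (0.958). For Cmklr1 they were Ssbp3, Zdhhc4 and Trip12 (0.969 to 0.932), for Lepr Pon2, Nr4a3 and Grhl1 (0.950 to 0.912) and for Stra6 Ffar2, Ccl7 and Cxcl5 (0.971 to 0.955). For Nampt they were Eif3e, Tmem30a and Selenot (0.954 to 0.942), for Apln Frmd4b, Itgb3 and Cebpz (0.899 to 0.891) and for Aplnr Ctr9, Kif2c and Ckap2 (0.960 to 0.894). These are the highest of many over few libraries and share depth, so they describe the table only. Those of Lepr also lean on KO 7, at 16.3 RPKM where the other libraries held 1.26 to 2.58 RPKM.

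**Figure D5:**
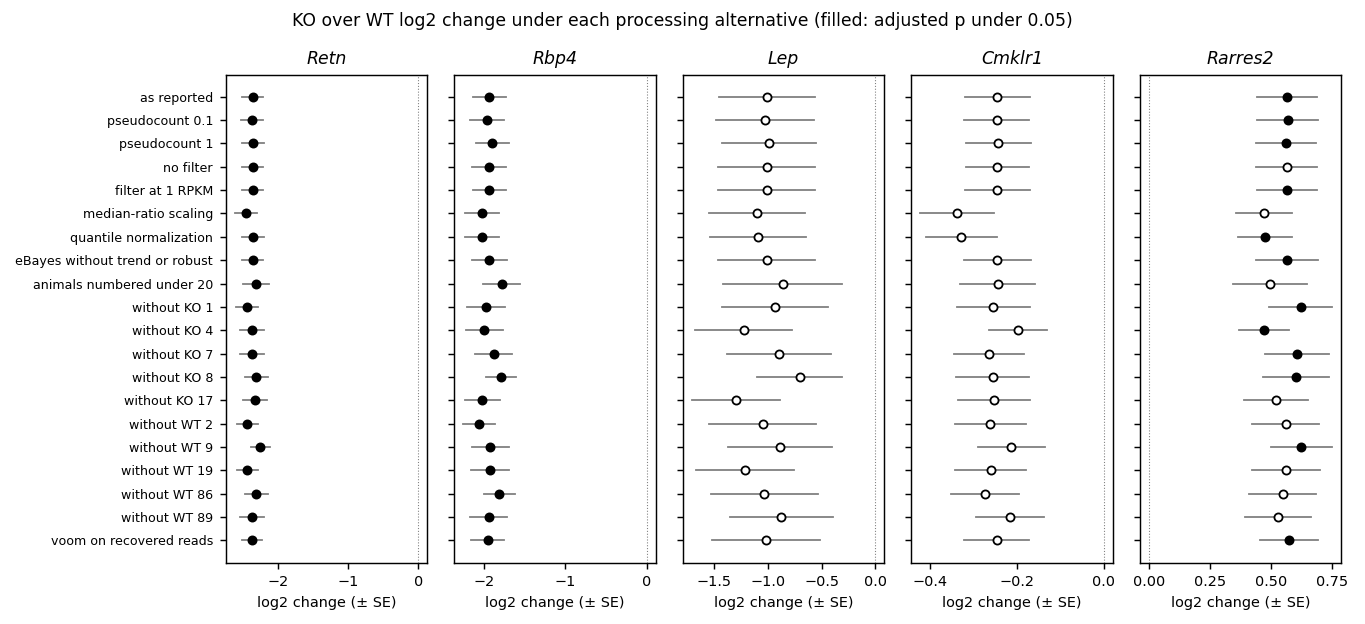
Log2 change, KO-labelled over WT, ± SE (horizontal axes) of 5 genes under each processing alternative (rows), filled where the adjusted p was under 0.05. Retn and Rbp4 are filled in every row, Lep and Cmklr1 in none, and Rarres2 in some.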

How the data were processed

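RNA of 5 KO-labelled and 5 WT mice was compared. Per the submitters' processing notes, bcl2fastq, STAR 2.0.4b1, Subread and featureCounts 1.4.52 were used. The authors deposited RPKM for genes and for transcripts, and the unit rests on the file names. Build, annotation, strand setting and the way reads were shared between transcripts are not stated there. Repeated rows held equal values and were used once (40503 genes, 84046 transcripts). Whole reads were recovered from RPKM steps for 25121 of 25122 genes above 0 in at least 3 libraries (tolerance 0.001 reads). No replicate pair was a repeated library (chi-square per gene at least 13.1). The highest values were those of WT 89 with the other WT libraries (53.8 to 74.5) and of KO 4 with KO 7 (60.9).

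Genes and transcripts reaching 0.5 RPKM in 5 or more libraries (17038 and 44475) were fitted as log2(RPKM + 0.5) with limma 3.58.1 (R 4.3.3, statmod 1.5.0, eBayes, trend and robust, 2-sided). The code was also run on simulated reads with the same dispersion for every gene, which cannot show the error rates in these libraries. SE and intervals are limma's. Lists were described by counts and medians, with the 10 genes left out of them. Beside the list counts, voom called 377 genes lower and 855 higher of 17037. No share over all genes was computed for unadjusted counts. Named from each pathway list were up to 4 called genes with the largest change, or the 2 most abundant where fewer than 2 were called, and up to 3 called from each marker list. Named beyond that rule, after their values were seen, were Stat3, Socs3, Retnla, Ccrl2, Leprot, Lrrc61, Pnpla2, Agt, Vegfa, Lcn2, Angptl4, Fndc5, Ccr2, S100a8 and Ly6g. The 10 genes, the lists and the tests were chosen with earlier results of these data known. Alternatives were limma-voom on recovered reads, animals numbered under 20, leaving out each library, other filters (none, 1 RPKM) and pseudocounts (0.1, 1), median-ratio scaling or quantile normalization, and plain eBayes. Sequences are RefSeq windows (GRCm38.p6), found for 8 of the 10 genes. There were none for Rarres2 and Aplnr.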

Additional observations from a re-analysis of the deposited data

Results flagged for a closer look

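Each gene, Med19 and each tested transcript with a group mean of at least 0.5 RPKM was examined for a library far from the other 4 of its group, by Dixon's criterion. Of 62 groups of 5 libraries 4 met it, where chance gives about 1 in 20. Lepr in the gene table was at 16.3 RPKM in KO 7 and at 1.92 to 2.58 RPKM in the other KO-labelled libraries. Cmklr1 was at 51.2 RPKM in KO 4 and at 59.8 to 61.6 RPKM in the other KO-labelled libraries. Its transcript ENSMUST00000047936 was at 39.3 RPKM in KO 4 and at 47.7 to 49.4 RPKM in the others. Its transcript ENSMUST00000132065 was at 29.9 RPKM in WT 89 and at 17.0 to 20.6 RPKM in the other WT libraries.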

How the results depend on the processing

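Retn and Rbp4 stayed called lower under all 19 alternatives, with log2 changes of -2.46 to -2.26 and -2.06 to -1.78, and the 3 transcripts called lower under all 18 of theirs. Rarres2 kept its direction and its call in 11 of 19 (0.47 to 0.62). The number of the 10 genes called higher, 1, was 0 with no filter, 0 with median-ratio scaling, 0 in animals numbered under 20 and 0 to 1 when 1 library was left out. Lep, Lepr, Cmklr1, Apln, Aplnr, Nampt and Stra6 stayed uncalled in all of theirs. Over all genes, calls higher were 681, but 292 with no filter, 102 with median-ratio scaling, 149 with quantile normalization, 71 in animals numbered under 20 and 192 to 693 when 1 library was left out. Calls lower were 332, with 137 in animals numbered under 20 and 205 to 313 when 1 library was left out. Over all transcripts, animals numbered under 20 gave 58 lower and 12 higher calls against 201 and 41, and leaving out 1 library gave 120 to 177 and 16 to 48. That subset holds 8 libraries; the cause of the other shifts was not tested. The Med19 difference (0.09 RPKM) was -0.32 with median-ratio scaling and -0.21 to 0.40 when 1 library was left out (exact permutation p of 0.492 or more). The uncalled transcript change of Nampt (0.055) was -0.023 with quantile normalization and -0.026 to 0.159 when 1 library was left out, and that of Cmklr1 ENSMUST00000132065 (0.080) was -0.031 without KO 7 and otherwise up to 0.216 when 1 library was left out. No paired analysis was possible because the groups share no animal numbers. Depth limits Stra6, at 30 to 73 reads per library.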
